A study of Homo sapiens with 8 samples.

Results

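Nonsense-mediated decay (NMD) is the pathway by which cells destroy messenger RNAs (mRNAs) whose translation stops too early. The mRNAs of 9 of its factors, namely UPF1, UPF2, UPF3A, UPF3B, SMG1, SMG5, SMG6, SMG8 and SMG9, were followed here among 60196 gene symbols that each named a single row of the count tables. They were taken by symbol, as UPF and SMG genes, and the set was chosen by a measured value, the log2 change of P-body over cytosol in HEL, in which UPF1 was among the largest falls. The HEL changes of the 9 are therefore given as a description, with no test. Tests on the 9 rest on MOLM-13. The difference between lines and the cytosolic levels also use HEL libraries that entered the choice. For the members other than UPF1, taken by symbol, p-values of those 2 comparisons are given as a description. RNA was sequenced from 4 groups of 2 libraries, which were MOLM-13 P-body, MOLM-13 cytosol, HEL P-body and HEL cytosol. MOLM-13 is a human acute myeloid leukaemia line of monocytic character and HEL is a human erythroleukaemia line. P-bodies are cytoplasmic granules in which mRNAs are held outside active translation, and the comparison asks which mRNAs sit there rather than in the cytosolic fraction. The titles say "cyto fraction", read here as cytosolic, and no genotype or treatment is given for any library. The labels do not say whether the replicates of a group were grown apart. The p-values below therefore speak of the spread among libraries alone, and that spread could be technical.

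UPF1 is the RNA helicase at the centre of the pathway. UPF2 and the paralogs UPF3A and UPF3B link UPF1 to exon junction complexes, the protein marks that splicing leaves on an mRNA. SMG1 is the kinase that phosphorylates UPF1, and SMG8 and SMG9 bind SMG1 and regulate it. SMG5 and SMG6 recognise phosphorylated UPF1, and SMG6 is the endonuclease that cuts the target mRNA. In human cells several of these mRNAs are themselves reported NMD targets, so that the pathway regulates its own factors, and UPF1 protein is known to collect in P-bodies when decay is blocked.

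The ends of the coding sequences are shown for 6 members that the results below turn on, with the stop codon, at which the ribosome halts, in capitals. Each line gives the last 60 coding bases, stop codon included, in the GENCODE 29 transcript with the longest coding sequence.
UPF1: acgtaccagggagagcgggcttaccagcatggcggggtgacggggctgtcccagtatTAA
SMG9: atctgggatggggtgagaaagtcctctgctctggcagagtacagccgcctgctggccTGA
UPF3A: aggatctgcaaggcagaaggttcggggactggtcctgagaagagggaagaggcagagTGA
UPF3B: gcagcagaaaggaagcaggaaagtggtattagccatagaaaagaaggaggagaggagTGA
UPF2: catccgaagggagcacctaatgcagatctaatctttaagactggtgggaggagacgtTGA
SMG1: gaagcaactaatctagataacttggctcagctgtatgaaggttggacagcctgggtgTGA
Over the whole coding sequence, G or C ended 79.9% of codons in UPF1 and 66.6% in SMG9. The share was 54.5% in UPF3A, 40.1% in UPF3B, 38.5% in UPF2 and 40.9% in SMG1.

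On GRCh38, GENCODE 29 places UPF1 on the plus strand at chr19:18831938-18868236 and SMG9 on the minus strand at chr19:43727992-43754990. UPF2 lies at chr10:11920022-12043170 (minus), UPF3A at chr13:114281584-114305817 (plus) and UPF3B at chrX:119805311-119852998 (minus). SMG1 lies at chr16:18804853-18926454 (minus), SMG5 at chr1:156249224-156282825 (minus), SMG6 at chr17:2059839-2303771 (minus) and SMG8 at chr17:59209400-59215247 (plus). The transcripts used ran from 2378 bases for UPF3B to 16115 for SMG1. The 3′ untranslated region was 4716 bases in SMG1, 3604 in SMG9, 1712 in UPF1 and 237 in SMG8. An exon junction lay after the stop codon in the UPF1 transcript and in none of the transcripts used for the other 8.

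Some of these counts may include reads of other loci. A set of 7 SMG1 pseudogenes, near-identical partial copies, held between them 37.0% to 38.0% as many counts as SMG1 in MOLM-13 P-body libraries and 22.4% to 23.0% in MOLM-13 cytosolic libraries. In HEL the figures were 48.3% to 49.9% in P-body and 57.6% to 60.2% in cytosolic libraries, so SMG1 values are uncertain. The 3 UPF3A pseudogenes held 1.14% to 3.33% as many counts as UPF3A over the 8 libraries. SMG6 shares 2419 exonic bases with HIC1 on the other strand, and HIC1 had 4 to 11 counts in MOLM-13 libraries and 0 to 14 in HEL libraries. SMG8 shares 422 exonic bases with an annotated gene on the same strand, AC099850.2, which was not analysed here.

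Library totals ran from 9868469 to 11000536 counts in MOLM-13 P-body, 5897625 to 7098927 in MOLM-13 cytosol, 17058567 to 18071473 in HEL P-body and 13153551 to 15569634 in HEL cytosol. By their sums, lineage markers matched the lines. The 10 erythroid and megakaryocytic markers summed to 45.5 to 62.0 CPM (counts scaled to library size) in MOLM-13 libraries and to 1383 to 2453 in HEL libraries, and the 10 monocytic and myeloid markers to 612 to 896 in MOLM-13 and 142 to 164 in HEL. GATA1, HBG1, HBG2, ITGA2B and TAL1 were at 0 in MOLM-13 cytosol, and CD14 was at 0 in HEL P-body libraries. In cytosol all 10 erythroid and megakaryocytic markers were lower in MOLM-13, and 9 monocytic and myeloid markers were higher and 1 lower. That 1 was MEIS1, with mean CPM of 51.0 in P-body and 19.3 in cytosolic MOLM-13 libraries against 66.5 and 52.9 in HEL. EPOR, an erythroid marker, had means of 26.3 and 30.0 in MOLM-13 against 37.9 and 51.9 in HEL. With scaling shared by all 8 libraries, cytosolic means in MOLM-13 and HEL were 20.2 and 51.1 for MEIS1 and 31.4 and 50.1 for EPOR. The 8 lymphoid markers summed to 34.6 to 37.3 CPM in MOLM-13 and 2.19 to 3.11 in HEL. CD3D alone gave 32.1 to 34.4 CPM of this in MOLM-13, where CD2 and CD3E were at 0. The 13 mitochondrially encoded mRNAs moved with the fraction, at 5416 to 5550 CPM in P-body against 8047 to 9088 in cytosolic MOLM-13 libraries and at 3746 to 4031 against 6204 to 6982 in HEL. The nuclear RNAs MALAT1 and NEAT1 together had 3352 CPM in both P-body libraries against 4586 to 4927 in cytosolic MOLM-13 libraries, and 655 to 719 against 671 to 749 in HEL. The part of these in the results below was not tested.

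In MOLM-13 the NMD factors split by fraction: UPF2, UPF3A and UPF3B were higher in P-bodies, UPF1, SMG1, SMG5 and SMG9 were lower, and SMG6 and SMG8 did not pass the test. UPF1 was 1.87-fold lower and UPF3A, the highest, 1.36-fold higher. The counts were thus 3 higher and 4 lower of 9 (edgeR quasi-likelihood test, adjusted p below 0.05 over 14089 genes), beside 32.4% of all tested genes higher, 28.5% lower and 60.8% in either direction, so that a call in this contrast is common. Both P-body libraries lay above both cytosolic ones for 4 members, beside 39.2% of all genes, and below for 4, beside 40.6%. The median log2 change was 0.21 over the 9 members and -0.04 over all tested genes. All 9 had enough counts to be tested in both lines.

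Values are CPM scaled by TMM, a factor that sets the bulk of genes equal between libraries. A change is thus measured against the bulk of genes, and no RNA amount per cell or per granule follows from it. UPF1 had 39.1 and 40.0 CPM in MOLM-13 P-body libraries, against 73.8 and 73.7 in MOLM-13 cytosolic libraries. Both P-body libraries lay below both cytosolic ones, and each pair agreed closely. The log2 change was -0.90 ± 0.083 (SE, n = 2 each, edgeR adjusted p = 8.86e-10), lower than in all but 9.35% of tested genes. It held its direction and its call under every alternative, with a log2 change of -0.42 once a smooth trend on GC and length was taken out.

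UPF2, the bridge between UPF1 and the UPF3 proteins, had 384 and 375 CPM in MOLM-13 P-body libraries, against 286 and 276 in cytosolic libraries. Its log2 change was 0.43 ± 0.048 (SE, n = 2 each, edgeR adjusted p = 2.55e-08). UPF3A had 363 and 349 CPM in MOLM-13 P-body libraries and 271 and 255 in cytosolic libraries, a log2 change of 0.44 ± 0.050 (SE, edgeR adjusted p = 4.01e-08). UPF3B had 179 and 180 CPM in MOLM-13 P-body libraries and 143 and 144 in cytosolic libraries, a log2 change of 0.32 ± 0.056 (SE, edgeR adjusted p = 2.49e-05). For each of these 3 genes both P-body libraries lay above both cytosolic ones. These rises depend on the scaling: under library totals, which moved the median of all genes to -0.47, the log2 changes were -0.01 for UPF2, 0.00033 for UPF3A and -0.12 for UPF3B, none called (edgeR adjusted p = 0.925, 0.995 and 0.0688 in that order). With the GC and length trend removed, UPF3A was still higher (0.34), and UPF2 and UPF3B were called lower, at -0.26 each.

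SMG1, the kinase, had 70.7 and 72.4 CPM in MOLM-13 P-body libraries, against 95.8 and 97.7 in cytosolic libraries, with a log2 change of -0.44 ± 0.071 (SE, n = 2 each, edgeR adjusted p = 8.66e-06). SMG9, a partner of that kinase, had 37.0 and 37.9 CPM in MOLM-13 P-body libraries and 63.0 and 60.2 in cytosolic libraries, a log2 change of -0.71 ± 0.088 (SE, edgeR adjusted p = 1.35e-07). SMG5 had 38.8 and 41.9 CPM in MOLM-13 P-body libraries and 64.2 and 48.9 in cytosolic libraries. Its cytosolic pair was spread out, and its log2 change of -0.48 ± 0.11 (SE, edgeR adjusted p = 0.000431) was -0.25 and no longer called without MOLM-13 cytosol replicate 1 (edgeR adjusted p = 0.0663), and -0.09 with the GC and length trend removed (adjusted p = 0.534).

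SMG6, the endonuclease, had 24.8 and 23.1 CPM in MOLM-13 P-body libraries and 23.5 and 18.4 in cytosolic libraries, and these overlapped. Its log2 change was 0.21 with a 95% interval of -0.07 to 0.49 (edgeR adjusted p = 0.184). It was called higher without MOLM-13 cytosol replicate 1 (0.41, adjusted p = 0.0351) and with the GC and length trend removed (0.50). SMG8 had 5.84 and 4.86 CPM in MOLM-13 P-body libraries, from 55 and 41 counts, and 4.72 and 3.99 in cytosolic libraries, from 32 and 33 counts. Its log2 change of 0.31 had a wide interval, -0.21 to 0.83 (edgeR adjusted p = 0.298), and a change of the size seen for UPF2 could not be told from none at this depth.

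**Figure D1:**
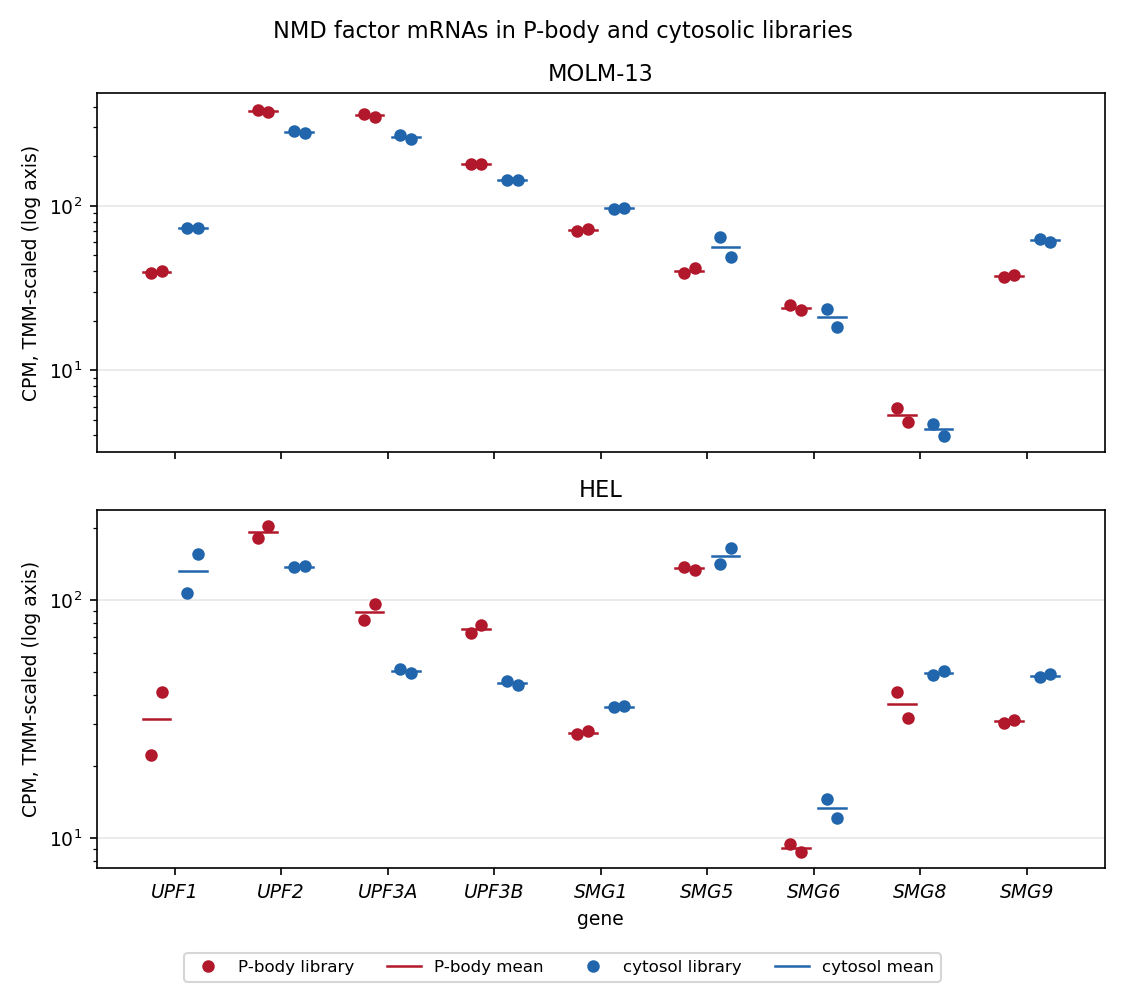
Level of each NMD factor mRNA in every library, in TMM-scaled CPM on a log axis, with MOLM-13 above and HEL below; points are libraries and short lines are group means (n = 2). In both lines the P-body points of UPF2, UPF3A and UPF3B lie above the cytosolic ones and those of UPF1, SMG1, SMG5 and SMG9 lie below, and under library totals the MOLM-13 changes of UPF2 and UPF3B turned to -0.01 and -0.12.

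In HEL, by description, UPF2, UPF3A and UPF3B were again above their cytosolic levels and the other 6 factors below, with UPF1 far lower than the rest. UPF1 had 22.3 and 40.9 CPM in HEL P-body libraries, against 107 and 157 in HEL cytosolic libraries. The libraries of each pair differed widely, yet the higher P-body value was well under the lower cytosolic one. The log2 change was -2.06 ± 0.21 (SE, n = 2 each), which is 4.18-fold lower and the 45th lowest of 14772 tested genes. It ran from -2.48 without HEL P-body replicate 2 to -1.69 without HEL P-body replicate 1, and was -1.49 with the GC and length trend removed.

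UPF2 had 182 and 204 CPM in HEL P-body libraries and 138 and 139 in HEL cytosolic libraries, a log2 change of 0.48 ± 0.080 (SE), which was -0.13 with the GC and length trend removed. UPF3A had 82.5 and 95.8 CPM in HEL P-body libraries and 51.3 and 49.4 in cytosolic ones, a log2 change of 0.83 ± 0.097. UPF3B had 72.4 and 78.3 CPM in HEL P-body libraries and 45.4 and 43.8 in cytosolic ones, a log2 change of 0.76 ± 0.094. The UPF3 paralogs thus lay side by side, and unlike in MOLM-13 both stayed above 0 under library totals and with the trend removed.

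Among the SMG genes of HEL, SMG9 had 30.5 and 31.2 CPM in P-body libraries and 47.4 and 48.8 in cytosolic libraries, a log2 change of -0.64 ± 0.10 (SE) that was -0.21 with the GC and length trend removed. SMG1 had 27.3 and 28.0 CPM in P-body libraries and 35.4 and 35.7 in cytosolic libraries, a log2 change of -0.36 ± 0.11. SMG6 had 9.41 and 8.72 CPM in P-body libraries and 14.5 and 12.2 in cytosolic libraries, a log2 change of -0.55 ± 0.16 that was -0.13 with that trend removed. These 3 had P-body values under both cytosolic values, as did SMG8, with 40.8 and 31.9 CPM against 48.2 and 50.0 and a log2 change of -0.43 ± 0.12 that was -0.18 without HEL P-body replicate 2. SMG5 had 137 and 134 CPM in HEL P-body libraries and 141 and 165 in cytosolic libraries, a log2 change of -0.17 with an interval of -0.36 to 0.01 that was 0.35 with the GC and length trend removed. The P-body libraries lay above both cytosolic ones for 3 members and below for 6, beside 35.3% and 41.1% of all genes. Nothing is read from these counts, since the set was chosen with this contrast in view.

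**Figure D2:**
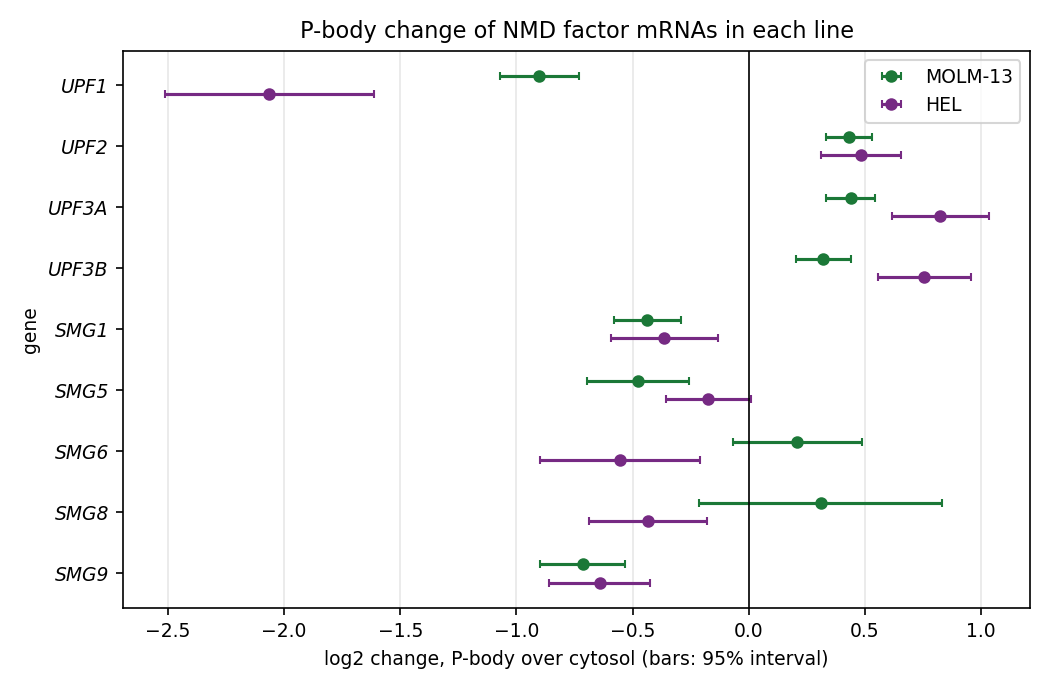
Log2 change of P-body over cytosol for each NMD factor in MOLM-13 and in HEL, with 95% intervals from the edgeR fit (n = 2 libraries a group). UPF1 is the lowest in both lines, at -0.90 in MOLM-13 and -2.06 in HEL, and the sign differs between the lines for SMG6 and SMG8, whose MOLM-13 intervals include 0.

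The difference between lines was taken as the interaction term, MOLM-13 change minus HEL change, in a fit of all 8 libraries. The HEL change, in view when the set was chosen, is part of this difference. Its p-values and calls for the members are therefore a description. That fit set the median difference of all 17477 tested genes at -0.11, and TMM factors computed within each line, an alternative added after the data had been examined, set it at 0.08. UPF3A and UPF3B rose less in MOLM-13 than in HEL, with differences of -0.58 ± 0.11 and -0.63 ± 0.11 (SE, edgeR adjusted p = 0.000386 and 0.000169), and of -0.39 and -0.43 with factors within each line (adjusted p = 0.0115 and 0.00429). Without HEL cytosol replicate 2 neither passed, at -0.26 and -0.31 (adjusted p = 0.160 and 0.0832), and UPF3A did not pass without HEL cytosol replicate 1 (-0.31, adjusted p = 0.0856). The all-gene median was then 0.14 and 0.17, in that order, so these settings also moved the zero.

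SMG5 differed by -0.50 ± 0.15 (SE, edgeR adjusted p = 0.0183), a call held in 8 of 16 alternatives. It was lost with factors within each line (-0.31, adjusted p = 0.163), under library totals (adjusted p = 0.0519), under DESeq2 (adjusted p = 0.0623) and without any of HEL P-body replicate 1, HEL cytosol replicates 1 and 2, MOLM-13 P-body replicate 1 and MOLM-13 cytosol replicate 1 (-0.44 to -0.09). SMG6 differed by 0.57 with an interval of 0.11 to 1.02 that did not pass the correction (adjusted p = 0.0691), and was called with factors within each line (0.76, adjusted p = 0.0149). For UPF2, SMG1, SMG8 and SMG9 the differences were -0.24, -0.26, 0.55 and -0.26 (edgeR adjusted p = 0.0740, 0.154, 0.170 and 0.191 in that order), and with the HEL cytosolic libraries left out in turn those of UPF2, SMG1 and SMG9 ran from 0.00071 to 0.06. The difference for UPF1 was 0.97 ± 0.26 (SE), given without a test because its HEL change was used to pick it. Of the 8 others, 3 were called lower and 0 higher, beside 13% lower, 9.15% higher and 22.2% in either direction among all tested genes. These counts also hold the HEL change, so nothing is read from them.

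**Figure D3:**
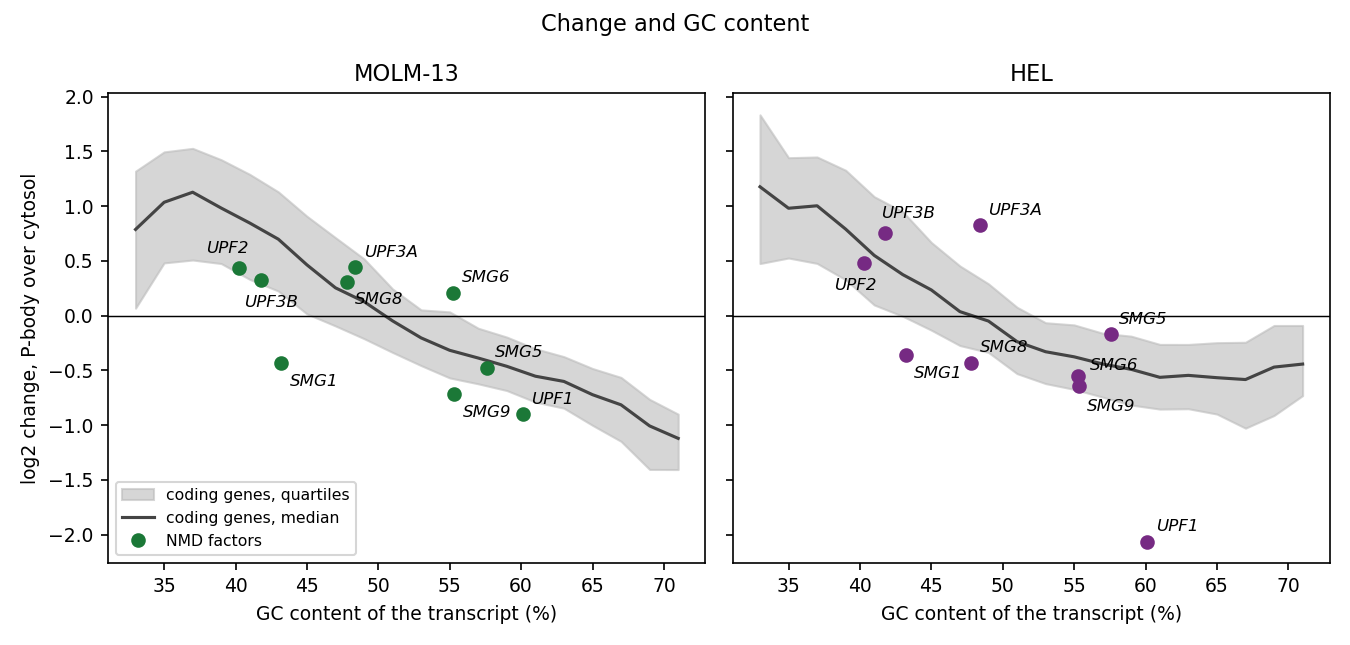
Log2 change of P-body over cytosol against the GC content of the transcript in MOLM-13 (left) and HEL (right); the line and band are the median and quartiles of tested coding genes in bins 2 percentage points wide, and points are the NMD factors. In both lines GC-poor UPF2 and UPF3B lie above 0 and GC-rich UPF1 and SMG9 below it, with SMG1 and UPF1 below the band. In MOLM-13 SMG9 also lies below the band and SMG6 above, and in HEL SMG8 lies below and UPF3A above.

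Base composition, which the choice of genes did not use, ran along with these changes. Transcript GC content was 60.1% in UPF1, 57.6% in SMG5, 55.3% in SMG6 and SMG9, 48.4% in UPF3A, 47.8% in SMG8, 43.2% in SMG1, 41.8% in UPF3B and 40.3% in UPF2. Across the 9 genes the log2 change and GC content had a Pearson r of -0.66 and a Spearman rho of -0.75 in MOLM-13, and -0.72 and -0.62 in HEL. Over all tested coding genes the Spearman rho was -0.72 in MOLM-13 (11241 genes) and -0.67 in HEL (11949 genes). The HEL values over the 9 include the UPF1 change by which the set was chosen. These are descriptions across genes that share libraries, and genes are not independent replicates.

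Set against coding genes of like GC content, the members differed in where they lay. In MOLM-13 the median log2 change was -0.55 in the bin of UPF1 and 0.84 in the bin that holds UPF2 and UPF3B, against their own values of -0.90, 0.43 and 0.32. SMG1 lay below its neighbours in both lines, at -0.44 in MOLM-13 where its bin had a median of 0.70 and a lower quartile of 0.22, and at -0.36 in HEL where the bin had 0.37 and -0.01. UPF3A lay above the upper quartile of its bin in HEL (0.83, upper quartile 0.29) and inside it in MOLM-13 (0.44, upper quartile 0.52). UPF1 lay under the lower quartile of its bin in both lines, at -0.90 in MOLM-13 (lower quartile -0.79) and at -2.06 in HEL (lower quartile -0.85). In MOLM-13 SMG9 was also under its lower quartile (-0.71, lower quartile -0.57), as was UPF3B by a narrow margin (0.32, lower quartile 0.33), and SMG6 was over its upper quartile (0.21, upper quartile 0.03). SMG8 was under its lower quartile in HEL (-0.43, lower quartile -0.27). The length of the 3′ untranslated region ran the other way among the members from coding genes at large, with a Spearman rho of -0.70 in MOLM-13 and -0.57 in HEL over 9 genes, beside 0.20 and 0.19 over all coding genes.

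Levels between genes were compared as CPM per kilobase of transcript, with TMM over all 8 libraries. In MOLM-13 cytosol UPF3A was the highest, at 113 and 118 CPM per kb, ahead of UPF3B at 62.5 and 63.8 and UPF2 at 52.2 and 53.4. UPF1 followed at 14.4 and 14.6, SMG5 at 11.3 and 14.6 and SMG9 at 11.5 and 11.9. SMG1 had 6.18 and 6.38, SMG6 3.25 and 4.09, and SMG8 was the lowest at 1.21 and 1.41. The neighbours UPF1 and SMG5, and SMG5 and SMG9, could not be ordered, since their libraries overlapped.

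The order in HEL cytosol was different and flatter at the top. SMG5 led at 32.4 ± 3.67 CPM per kb (SD, n = 2), UPF1 had 19.4 and 28.5, UPF2 23.8 and 24.1, UPF3A 20.4 ± 0.48 (SD, n = 2) and UPF3B 17.8 and 18.4. SMG8 stood at 13.3 and 13.9, SMG9 at 8.28 and 8.57, SMG6 at 1.98 and 2.35 and SMG1 at 2.11 and 2.15. The libraries of UPF1 overlapped with those of UPF2 and UPF3A, and those of SMG6 with SMG1. In P-body libraries UPF1 stood below SMG5 in MOLM-13, at 7.14 and 7.25 CPM per kb against 8.27 and 8.85, and in HEL it had 4.29 and 7.83, on either side of SMG9 at 5.64 and 5.76. UPF2 exceeded UPF1 per length by 8.95 to 9.38 times in MOLM-13 P-body libraries and by 3.57 to 3.70 times in MOLM-13 cytosolic libraries. In HEL the ratio of UPF2 to UPF1 was 4.76 and 7.78 in P-body libraries and 0.844 and 1.23 in cytosolic libraries.

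**Figure D4:**
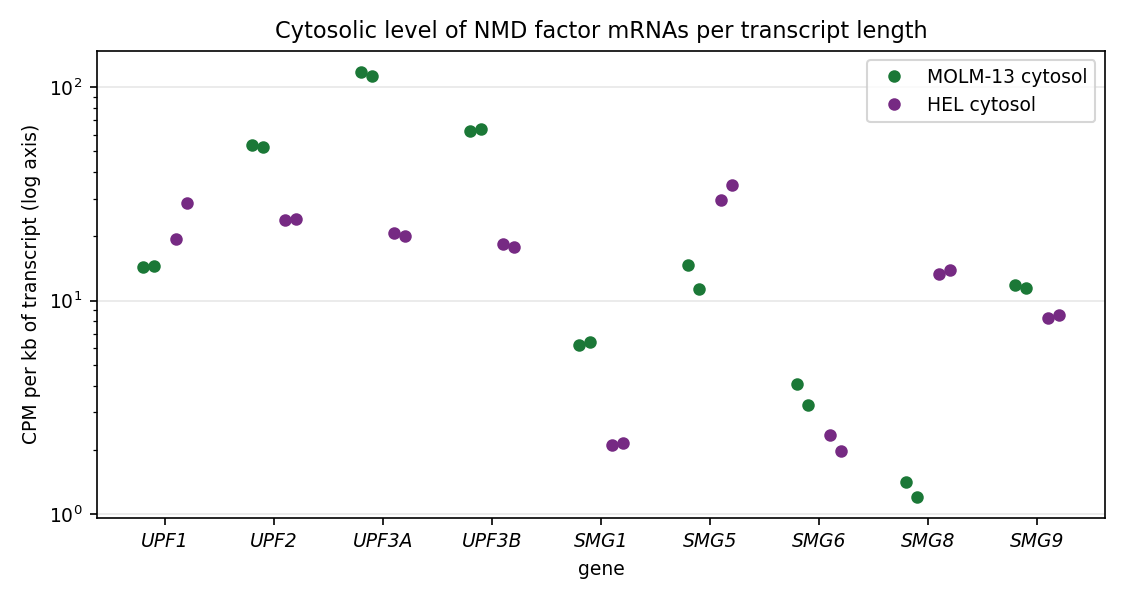
Cytosolic level of each NMD factor mRNA in CPM per kilobase of transcript, on a log axis, in MOLM-13 and HEL (points are libraries, n = 2 a line). UPF2, UPF3A, UPF3B and SMG1 are higher in MOLM-13, and SMG5, UPF1 and SMG8 are lower, with SMG8 at 1.21 and 1.41 in MOLM-13 against 13.3 and 13.9 in HEL.

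Cytosolic levels were tested between lines in the same fit for the 8 members other than UPF1. HEL cytosolic levels enter the HEL change in view when the set was chosen, so these p-values are a description. UPF3A was 5.66-fold higher in MOLM-13 than in HEL (log2 change 2.50 ± 0.079, SE, n = 2 each, edgeR adjusted p = 2.02e-17), and its paralog UPF3B 3.49-fold higher (edgeR adjusted p = 4.31e-15). SMG1 was 2.95-fold and UPF2 2.21-fold higher, SMG6 1.69-fold and SMG9 1.39-fold higher. SMG8 was 10.5-fold lower in MOLM-13 (log2 change -3.39 ± 0.18, SE, edgeR adjusted p = 1.18e-13), and SMG5 2.51-fold lower. Thus 6 of these 8 were higher and 2 lower, beside 44.2% higher, 40.1% lower and 84.4% in either direction among all 17477 tested genes, so that being called here is common. The call for SMG9 was lost when all genes with at least 1 count were kept (log2 change 0.18, edgeR adjusted p = 0.263), and the other 7 kept their direction and call under each alternative. UPF1 was 1.65-fold lower in MOLM-13, given without a test because its HEL cytosolic level enters the value that chose the set, and its log2 change ran from -1.12 without HEL cytosol replicate 1 to -0.56 without HEL cytosol replicate 2. Line and count table cannot be told apart, and in such bulk libraries fewer contributing cells and less RNA per cell cannot be told apart either. The ratio of UPF3A to UPF3B per length was 1.94 to 2.01 in MOLM-13 P-body and 1.76 to 1.89 in MOLM-13 cytosolic libraries, and 1.14 to 1.22 in HEL P-body libraries and at most 1.13 in HEL cytosolic libraries.

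The list of 15 other NMD and decapping factors held 8 higher and 4 lower genes for MOLM-13, beside 32.4% and 28.5% of all tested genes, and 5 were higher and 7 lower in HEL, beside 27.5% and 27.1%. The list medians were 0.40 in MOLM-13 and -0.17 in HEL, beside -0.04 and -0.06 over all tested genes. XRN1, the exonuclease that degrades decapped mRNA, was 3.05-fold higher in MOLM-13 P-bodies and 2.28-fold higher in HEL P-bodies, and GNL2, a nucleolar GTPase, 3.09-fold and 2.36-fold higher. DHX34, a helicase that binds UPF1, was 1.46-fold and 1.52-fold lower, and RUVBL2, an ATPase that associates with SMG1, 1.38-fold and 1.35-fold lower.

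The exon junction complex list had 4 of 10 genes higher and 4 lower in MOLM-13, and 2 higher and 4 lower in HEL, beside the same shares of all genes, and its medians were -0.06 and 0.0048. PNN, a splicing-linked component, was 2.89-fold higher in MOLM-13 and 3.59-fold higher in HEL, and SAP18 1.75-fold and 1.37-fold higher. CASC3, a core subunit, was 1.63-fold and 1.64-fold lower. PYM1, which takes the complex apart, was 1.27-fold lower in MOLM-13 and had a log2 change of 0.04 in HEL that was not called. Among translation termination and cap-binding factors, MOLM-13 had 4 of 7 tested genes higher and 2 lower, and HEL had 5 of 8 higher and 0 lower. The cap-binding subunits NCBP2 and NCBP1 were 2.41-fold and 2.28-fold higher in MOLM-13, and 1.47-fold and 1.25-fold higher in HEL. CTIF, a factor of cap-dependent translation, and the poly(A)-binding protein PABPC4 were 1.66-fold and 1.18-fold lower in MOLM-13, and not called in HEL (log2 changes of -0.54 and 0.05). Over the 3 lists MOLM-13 had 16 of 32 tested genes higher and 10 lower, beside 32.4% and 28.5% of all genes, and 12 of 33 higher and 11 lower in HEL, beside 27.5% and 27.1%. All these directions are under TMM.

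Of 24 genes with known NMD target transcripts, MOLM-13 P-bodies had 4 higher and 11 lower, beside 32.4% and 28.5% of all tested genes. The median log2 change was -0.22 against -0.04 over all. Counts were by gene symbol, so these are gene totals in which the transcripts of a gene were not told apart. In HEL 4 were higher and 7 lower, beside 27.5% and 27.1%, with a median of -0.09 against -0.06 over all. SLC7A11, a cystine transporter, was 2.78-fold higher in MOLM-13 and 3.25-fold higher in HEL, and HNRNPDL, an RNA-binding protein, 2.17-fold and 1.79-fold higher. The ribosomal protein mRNA RPL12 was 1.82-fold lower in MOLM-13, and the noncoding host RNA ZFAS1 1.36-fold lower, while in HEL their log2 changes were -0.14 and 0.09 and were not called. ATF4, a stress transcription factor, was lower in both lines, with log2 changes of -0.22 in MOLM-13 and -0.20 in HEL. With the GC and length trend removed 9 targets were higher in MOLM-13, beside 4072 of 13673 tested genes. Under library totals 19 were lower, beside 7154 of 14089 tested genes.

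**Figure D5:**
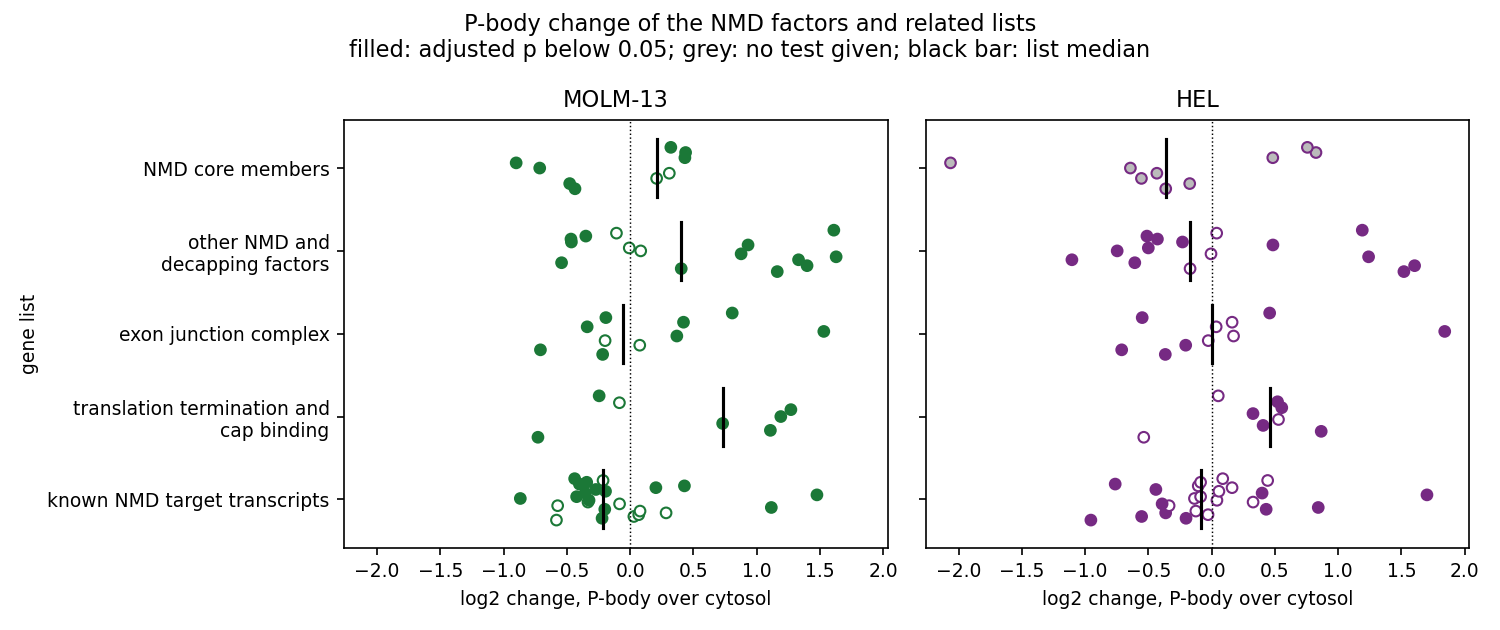
Log2 change of P-body over cytosol for the NMD factors and 4 related gene lists in MOLM-13 (left) and HEL (right); filled points have an edgeR adjusted p below 0.05, grey points carry no test, and black bars are list medians. The factors stand on both sides of 0 with medians of 0.21 in MOLM-13 and -0.36 in HEL, and the termination and cap-binding list has medians of 0.73 and 0.46.

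The genes most like UPF1 over the 8 libraries, by Euclidean distance of log2 CPM after the mean of each line was taken off, were KAZN, STK11, ITGB5, GIPR and GNA12, among 11983 genes. Their distances ran from 0.46 to 0.55. STK11, the kinase LKB1, had log2 changes of -1.20 in MOLM-13 and -1.82 in HEL, and KAZN, the nearest, -0.90 and -1.71. UPF3A had the highest signed mean change of the 9 over the lines, the greatest rise, and its nearest genes were ANKRD18B, DYRK2, SEC11C, RNF170 and FBXO33, at distances of 0.12 to 0.15. ANKRD18B had log2 changes of 0.44 in MOLM-13 and 0.79 in HEL.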

How the data were processed

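The authors deposited 1 table a line, holding raw counts of reads by gene symbol. GRCh38, STAR, SAMtools 1.12 and DESeq2 appear in the submitters' processing notes. How P-bodies were isolated, the counter, its annotation and its strand setting: not given in the sources used here. The labels' protocols name miRNeasy Micro for RNA and NEBNext Ultra II for libraries. Of 61544 rows, 1348 with repeated symbols were left out. Counts were tested with edgeR 4.0.16 in R 4.3.3 (quasi-likelihood test, TMM, filterByExpr with a smallest count of 10, Benjamini-Hochberg adjustment over all tested genes, threshold 0.05), per line and, for the difference between lines and the cytosolic levels, in a fit of all 8 libraries. Standard errors were the log2 change divided by the root of F. Transcript length and composition came from GENCODE 29, matched for 55890 of 60196 symbols. Replicates of a group differed by more than sampling noise (chi-square per degree of freedom 1.87 to 6.15). Alternatives were RLE, library totals, 2 low-count filters, DESeq2 1.42.0, a replicate block, leaving out each library, and a smooth trend on GC content and length (mgcv) removed. Members and lists were chosen with earlier results of these data known. Named genes were the 9 members, up to 2 called genes at each end of each list in MOLM-13, and the 5 nearest to UPF1 and to the member with the highest signed mean change; HIC1, AC099850.2 and ATF4 were chosen after values were seen. A further gene under that rule is not reported here.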

Additional observations from a re-analysis of the deposited data

Results flagged for a closer look

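The P-body changes of 3 factors differed between the lines by the interaction term, as MOLM-13 minus HEL on the log2 scale with edgeR adjusted p below 0.05. Each difference includes the HEL change, in view when the set was chosen, so these calls are a description. The difference was -0.58 for UPF3A, -0.63 for UPF3B and -0.50 for SMG5, in a fit whose median over all genes was -0.11. UPF3A and UPF3B were higher in P-bodies in both lines, and SMG5 had a log2 change of -0.48 in MOLM-13 and -0.17 in HEL. With TMM factors within each line the differences were -0.39, -0.43 and -0.31, and the last did not pass (edgeR adjusted p = 0.163). Without HEL cytosol replicate 2 neither UPF3A (-0.26, adjusted p = 0.160) nor UPF3B (-0.31, adjusted p = 0.0832) passed, and UPF3A did not pass without HEL cytosol replicate 1 (-0.31, adjusted p = 0.0856). With 1 library left out at a time, SMG5 ran from -0.68 to -0.09.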

How the results depend on the processing

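Under library totals the MOLM-13 fit called 0 members higher, with 2903 genes higher and 7154 lower, 2 targets higher and 19 lower, and log2 changes of -0.0052 for UPF2, -0.12 for UPF3B, -0.23 for SMG6 and -0.13 for SMG8. Genes called higher then made up 28.9% of calls, against 53.2% under TMM. The HEL fit under library totals had 6761 of 14772 genes, 18 other pathway genes and 15 targets lower. It had 2 targets higher, beside 2762 genes. With the GC and length trend removed, MOLM-13 had 2522 of 13673 genes and 4 other pathway genes lower. It had 9 targets higher, beside 4072 genes. UPF2 and UPF3B were then at -0.26 each in MOLM-13. In HEL that setting gave 7 of the list of 33 other pathway genes lower, beside 2910 of 14380 genes. UPF2 was then at -0.13 and SMG5 at 0.35 in HEL. DESeq2 called 2623 genes lower in MOLM-13. The cause of these moves was not tested.

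For the difference between lines, the HEL change in view when the set was chosen enters every member. Counts of members called higher also include UPF1, whose HEL change chose the set. Nothing is therefore read from counts of members called in either direction. The main fit had 1 member higher. Under RLE and under library totals 2 were higher, beside 1895 and 1955 of all 17477 genes. TMM factors within each line also gave 2 higher, beside 2641 genes higher and 1399 lower. DESeq2 gave 0 members higher, beside 1646 genes higher and 1466 lower. Members lower were 5 with a CPM of at least 5 in 2 libraries, beside 2774 of 12200 genes. With the trend removed 6 were lower, beside 2378 of 16820 genes. Genes called higher made up 41.3% of calls under TMM, 50.5% under RLE and 51.7% under library totals. Leaving out 1 library each time gave 1 to 3 members higher, 0 to 3 lower, 1198 to 3441 genes higher and 880 to 2054 lower, with UPF2 at -0.26 to 0.062, SMG1 at -0.28 to 0.042 and SMG9 at -0.29 to 0.055.

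Between fractions, deviations of libraries with the same replicate number were hardly correlated (-0.01 in MOLM-13 and -0.08 in HEL). This cannot tell whether such libraries came from the same culture. With a replicate block UPF1 in MOLM-13 was -0.90, and no member call changed in that line. Depth limited SMG8 in MOLM-13 most, at 32 to 55 counts a library.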

Other observations

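Outside the rule for named genes, and chosen after its values were seen, EDC4, a scaffold of the decapping complex, had opposite directions in the lines. It had 5.63 and 10.7 CPM in MOLM-13 P-body libraries and 3.10 and 3.27 in cytosolic libraries, a log2 change of 1.33 ± 0.29 (SE, n = 2 each, edgeR adjusted p = 0.000378). In HEL it had 48.5 and 46.2 CPM in P-body libraries and 93.3 and 110 in cytosolic libraries, a log2 change of -1.10 ± 0.099 (SE, edgeR adjusted p = 2.03e-07). The MOLM-13 values rest on 21 to 90 counts a library, and the P-body pair differed widely.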
